A study of Mus musculus with 16 samples.

Results

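Akap6 and Atrnl1 are a pair of long mouse genes whose CpG methylation moved in opposite directions between oocytes of prepubertal and of adult females. They were chosen by that pattern, that is, selected on the gene body levels of the 4 groups: Akap6 was higher and Atrnl1 lower in the adult groups, so the adult against prepubertal values are given here as a description, without a test. The members are 2 of 55413 annotated genes, of which 18091 had enough covered positions in every library to be compared. Each gene was taken with 100 kb on either side and read in 10-kb bins, which gave 140 of the 272564 bins of the genome.

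The data were CpG methylation calls from 16 libraries, each made by post-bisulfite adapter tagging (PBAT, in which adapters are added after bisulfite treatment so that little DNA is lost) from a pool of metaphase II oocytes. All oocytes came from F1 females of C57BL/6J X CBA/Ca. The IFC group (in vitro follicle culture, n = 4) held oocytes matured in cultured follicles, taken from females of 13 days and grown for 10 days, with a labelled age of 23 days. Their medium held recombinant FSH, and recombinant hCG with EGF was given as the ovulatory stimulus. The SO group (n = 5) held oocytes of 23-day-old females superovulated with 2.5 IU of each gonadotrophin. The SOA group (n = 4) came from females of 10 weeks superovulated with 5 IU, and the IV group (n = 3) from females of 10 weeks that ovulated naturally after synchronisation with male pheromones. Age and gonadotrophin dose therefore changed together between SO and SOA. IFC oocytes, unlike the other 3 groups, did not complete their growth in the ovary.

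Libraries held 5218053 to 23065411 calls, and 65.5 to 91.5% of covered positions had a single call. Depth was uneven between groups: all 4 IFC, 2 of 5 SO, 3 of 4 SOA and none of 3 IV libraries were under 10 M calls (M, mega). Global methylation lay between 38.1 and 43.6%. As a check of the labelled cell type, 9 of 12 starts of imprinted genes that carry maternal methylation were 93.9 to 98.9% methylated over all libraries. The annotated starts of Mest, Plagl1 and Grb10 were at 28.7%, 1.79% and 18.7%. These windows were set by annotated starts and were not matched to the imprinted regions, where the study reported high methylation in all samples. At 4 of the 9, Peg3, Peg10, Nnat and Mcts2, the lowest library was IV replicate 1, at 85.1, 77.1, 86.3 and 76.8%. IV replicate 1 stood apart in the low flank after Atrnl1, at 16.1%, where the next library, IFC replicate 1, was at 9.07%. In the flank after Akap6 it was the highest at 13.7%, but SO replicate 4 was close, at 13.3%. The study suspected slight contamination of this library by DNA of somatic cells and kept it. A lower Gnas imprinted region in the IV group seemed to the study to come from the same library. The suspected contamination was not tested here. Gene body levels, and the counts of genes and of bins called or without overlap, were also taken without IV replicate 1. Levels of parts of the gene bodies, of the flanks and of the starts were not.

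In growing oocytes DNA methylation is laid down by DNMT3A with DNMT3L, mostly over transcribed gene bodies, while most CpG islands at active starts stay unmethylated. Akap6 encodes an A-kinase anchoring protein that holds protein kinase A at the nuclear envelope in muscle and nerve cells. In oocytes, cAMP and protein kinase A keep meiosis arrested until ovulation. Atrnl1 encodes attractin-like 1, a membrane protein related to attractin, the product of the mahogany locus, and able to bind the melanocortin 4 receptor. No RNA was measured in these libraries, so transcription of either gene is not addressed.

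Akap6 (ENSMUSG00000061603.8) lies on the plus strand at chr12:52699383-53155599 and Atrnl1 (ENSMUSG00000054843.9) on the plus strand at chr19:57611034-58133343 (GRCm38, GENCODE M21). They span 456 and 522 kb, longer than 98.1% and 98.5% of the 14356 protein-coding genes compared. Akap6 held 9.61 CpGs per kb and Atrnl1 11.8, against a median of 12.3 over all these genes and of 7.02 over the 354 that are at least 400 kb long. The first sequence shown is the 250 bases before the most upstream RefSeq start of Atrnl1, given because it is so rich in CpGs, and the others are the intronic stretches of 300 bases in which adult and prepubertal oocytes differed most among windows with at least 20 calls in each group. Letters are 5′ to 3′ on the plus strand of GRCm38, and capitals mark CpGs.
Atrnl1 before the start, chr19:57610710-57610959: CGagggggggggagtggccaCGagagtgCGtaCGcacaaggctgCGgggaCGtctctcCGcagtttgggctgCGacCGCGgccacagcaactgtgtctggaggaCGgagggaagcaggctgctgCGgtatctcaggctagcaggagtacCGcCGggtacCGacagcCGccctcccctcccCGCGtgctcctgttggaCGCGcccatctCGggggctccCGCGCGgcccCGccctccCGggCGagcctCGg
Akap6 intron, chr12:52700851-52701150: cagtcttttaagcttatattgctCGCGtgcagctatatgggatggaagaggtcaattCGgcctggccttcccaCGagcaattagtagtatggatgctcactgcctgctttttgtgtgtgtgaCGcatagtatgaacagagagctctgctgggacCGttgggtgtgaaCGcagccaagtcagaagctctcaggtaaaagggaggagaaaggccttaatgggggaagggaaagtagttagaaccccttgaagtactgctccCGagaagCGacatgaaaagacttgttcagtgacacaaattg
Atrnl1 intron, chr19:57700851-57701150: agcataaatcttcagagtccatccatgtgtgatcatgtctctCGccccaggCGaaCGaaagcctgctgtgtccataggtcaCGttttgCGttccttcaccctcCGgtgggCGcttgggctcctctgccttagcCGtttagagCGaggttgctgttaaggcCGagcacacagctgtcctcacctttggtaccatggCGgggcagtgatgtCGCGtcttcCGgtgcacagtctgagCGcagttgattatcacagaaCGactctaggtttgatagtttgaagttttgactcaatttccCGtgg

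The stretch before the Atrnl1 start held 28 CpGs, and 7.61% of the 32851 RefSeq promoters in the reference table had as many over the same length. The Akap6 intron window, 1.47 kb after the start, held 9 CpGs with 3 of 21 calls methylated in IFC, 9 of 38 in SO, 15 of 20 in SOA and 26 of 42 in IV. These are 14.3% (95% Wilson interval 4.98 to 34.6), 23.7% (12.99 to 39.2), 75.0% (53.1 to 88.8) and 61.9% (46.8 to 75.0). The Atrnl1 window, 89.8 kb after the start, held 17 CpGs with 20 of 21 calls methylated in IFC, 24 of 38 in SO, 5 of 81 in SOA and 6 of 31 in IV. That is 95.2% (77.3 to 99.2), 63.2% (47.3 to 76.6), 6.17% (2.67 to 13.6) and 19.4% (9.19 to 36.3). The windows were picked for their difference, from 38 in Akap6 and 102 in Atrnl1 that met the limits, and the intervals cover counting error only.

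Over the whole gene body, the level of a library was the mean percentage of its covered CpG positions, with 988 to 3380 positions in Akap6 and 1412 to 4645 in Atrnl1. Akap6 was at 12.8, 11.8, 13.3 and 11.5% in the 4 IFC libraries and at 19.6, 16.8, 21.5, 17.9 and 15.5% in the 5 SO libraries. In adults it was at 38.5, 34.0, 28.3 and 26.8% in SOA and at 33.9, 32.3 and 29.4% in IV. The order was IFC, then SO, then both adult groups, and neither the 2 prepubertal groups nor prepubertal and adult libraries overlapped. For IFC against SO, the share of all genes without overlap was not taken. The means were 12.3% ± 0.856 (SD, n = 4) in IFC, 18.2% ± 2.37 (n = 5) in SO, 31.9% ± 5.37 (n = 4) in SOA and 31.9% ± 2.30 (n = 3) in IV.

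Atrnl1 ran the other way. Its gene body was at 45.0, 41.5, 42.6 and 40.9% in IFC and at 49.0, 47.7, 42.6, 48.7 and 44.0% in SO. Adult levels were 32.2, 35.4, 32.3 and 31.6% in SOA and 38.3, 32.5 and 31.9% in IV, where the highest value was that of IV replicate 1. The prepubertal libraries were all above the adult ones, with IFC and SO overlapping and SOA and IV overlapping. The means were 42.5% ± 1.82 (n = 4), 46.4% ± 2.92 (n = 5), 32.8% ± 1.71 (n = 4) and 34.2% ± 3.55 (n = 3) in IFC, SO, SOA and IV.

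**Figure D1:**
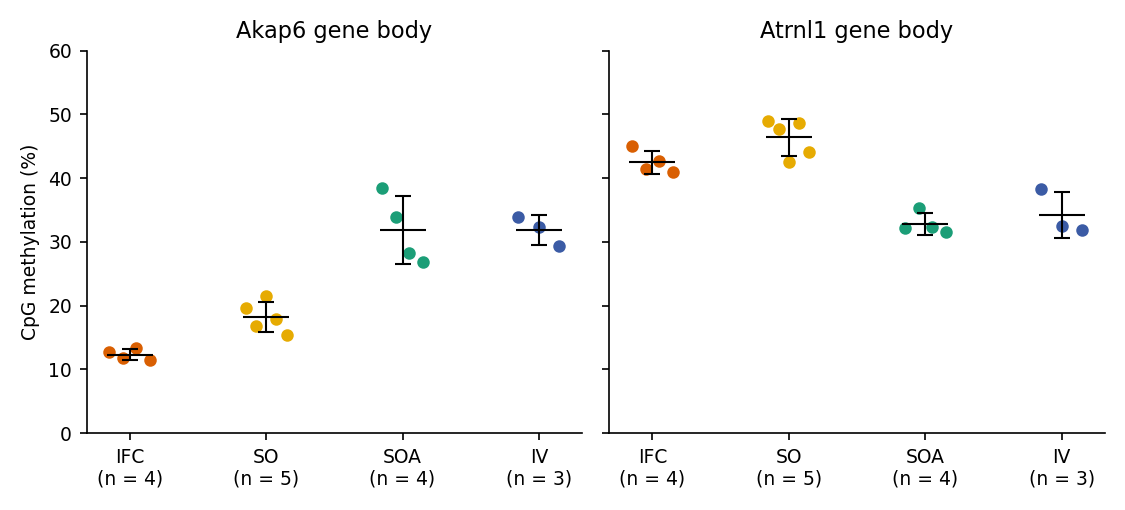
CpG methylation of the gene bodies of Akap6 (left) and Atrnl1 (right) in percent, by group, where each point is a library, the long bar is the group mean and the error bar the SD. Akap6 libraries lie between 11.5 and 21.5% in the prepubertal groups and between 26.8 and 38.5% in the adult groups, and Atrnl1 libraries between 40.9 and 49.0% and between 31.6 and 38.3%.

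The difference of the adult mean (SOA and IV averaged) from the prepubertal mean (IFC and SO averaged) was 16.6 points in Akap6 and -10.9 points in Atrnl1, beside medians of -0.41 points over all 18091 genes and -0.067 over all bins measured in every library. In all genes, limma called 5.28% for this contrast, 2.38% higher and 2.91% lower in adults. Samples did not overlap in 0.691% of genes with adults above and in 0.895% with adults below. As a description, 113 genes had a larger rise than Akap6 and 481 a larger fall than Atrnl1. Among the 354 protein-coding genes of at least 400 kb these numbers were 0 and 11. Since depth differed between the groups, the difference was also taken within depth classes. It was 18.3 points for Akap6 and -12.2 for Atrnl1 in libraries under 10 M calls. In libraries over 10 M calls, with no IFC library and only 1 SOA library, it was 11.1 and -12.2 points. With each library left out in turn it ran from 15.5 to 17.4 points in Akap6 and from -11.9 to -10.3 points in Atrnl1.

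The rise in Akap6 was not even along the gene. With the gene body cut into 4 segments of equal length, the first segment from the start had means of 12.03% ± 1.01 (IFC), 22.9% ± 4.00 (SO), 41.6% ± 7.30 (SOA) and 39.6% ± 3.02 (IV). The second segment was at 9.05% ± 1.47, 14.97% ± 4.15, 34.4% ± 5.79 and 33.3% ± 2.13. Differences were smaller further along, with 10.3 points between adult and prepubertal means in the third segment and 6.32 in the last, against 23.1 and 21.9 in the first 2. Exons and introns were alike in this respect, with differences of 17.7 and 16.5 points, although the exons rested on only 62 to 277 positions a library. Centred 286 to 316 kb after the start lay 4 bins of 41.9 to 71.9% in SOA and 46.6 to 56.7% in SO, where adult minus prepubertal differences ran from -10.6 to 16.0 points.

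The higher level in adults began before the annotated start. In the 40 kb upstream, Akap6 was at 16.1, 13.2, 17.9 and 18.0% in IFC and at 51.3, 39.0, 47.5, 37.3 and 40.4% in SO. Adult levels there were 61.4, 62.0, 54.0 and 44.0% in SOA and 56.8, 61.8 and 51.0% in IV. Here SO was nearer to the adult libraries than to IFC, and its highest values overlapped the lowest adult ones. Between 40 and 100 kb upstream the level fell to 5.08% ± 2.18, 4.80% ± 1.11, 3.85% ± 3.08 and 5.93% ± 4.75 in IFC, SO, SOA and IV. No annotated gene lies within the 40 kb, and the most upstream RefSeq start of Akap6 is 0.795 kb before that of GENCODE. The edge of this stretch was noticed in the bin values and has no test of its own.

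Within 10-kb bins, 7 of the 44 Akap6 gene body bins that were measured in every library had all adult libraries above all prepubertal ones, where 0.324% of all 192277 such bins of the genome did, and none had them below. In the upstream flank of Akap6, 1 of 11 bins had all adult libraries above, the one that reaches the start. In the gene body of Atrnl1, 10 of 52 bins had all adult libraries below all prepubertal ones, against 0.345% of all bins. As the genes were picked for this contrast, these counts only show how far the difference was spread along each gene. A difference of at least 20 points was found in 14 of the Akap6 bins, where 1.14% of all bins rose as much, and in 16 of the Atrnl1 bins, where 1.01% fell as much. Without IV replicate 1, the counts of gene body bins without overlap were 7 in Akap6 and 12 in Atrnl1. Then 0.357% of all bins had adults above and 0.497% had them below. The counts at 20 points were not taken without it. Among bins measured in every library, the one of Akap6 with the largest difference, chr12:52710001-52720000, was at 5.26 to 18.6% in IFC, 25.5 to 42.1% in SO, 46.0 to 90.3% in SOA and 55.3 to 60.7% in IV.

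**Figure D2:**
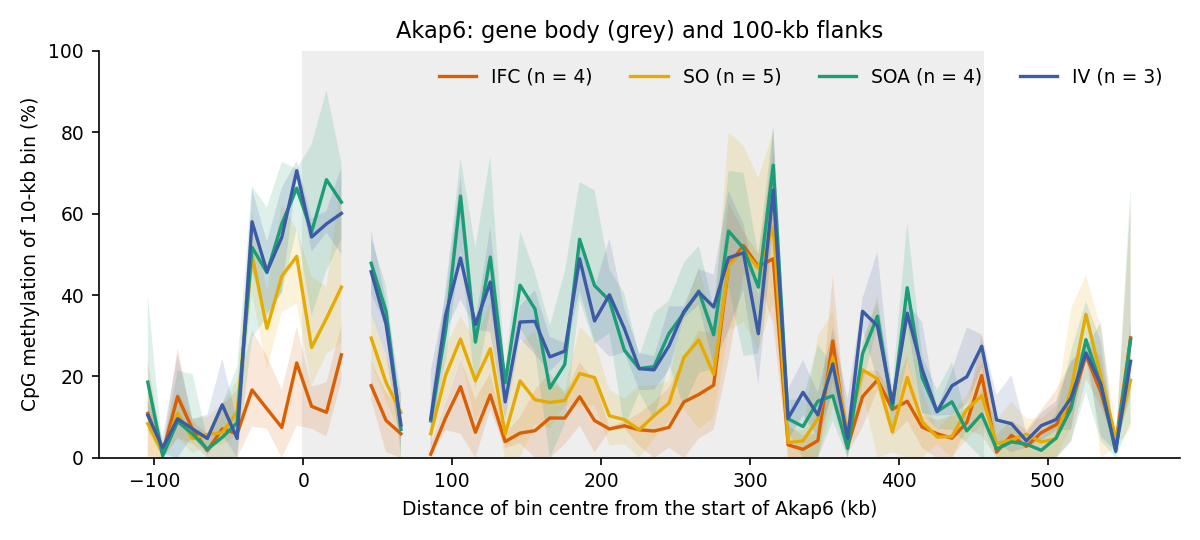
CpG methylation in percent of 10-kb bins across Akap6 (grey) and its flanks against distance from the start in kb, where lines are group means and shading is the range of the libraries, with bins of under 5 covered positions in any library left out. In bins centred from 34.4 kb before the start to 55.6 kb after it, both adult means lie above SO and SO above IFC. Over the gene body the adult mean is above the prepubertal mean in 39 of 44 bins, and the groups meet at both ends of the window.

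At the starts themselves coverage was thin. Within 500 bases of the first Akap6 start, 3 of 23 calls were methylated in IFC (13.04%, Wilson interval 4.54 to 32.1), 25 of 57 in the 4 SO libraries with a call (43.9%, 31.8 to 56.7), 7 of 16 in SOA (43.8%, 23.1 to 66.8) and 14 of 27 in IV (51.9%, 34.0 to 69.3). A shorter GENCODE transcript starts inside the gene at chr12:52795836. Within 500 bases of that start 4 of 42 calls were methylated in IFC (9.52%, 3.77 to 22.1) and 37 of 97 in SO (38.1%, 29.1 to 48.1). In SOA 38 of 74 were (51.4%, 40.2 to 62.4) and in IV 56 of 80 (70.0%, 59.2 to 78.9). These values pool calls, and the intervals cover counting error only. As the mean over covered positions of each library, the level was 3.80% ± 4.39 in IFC and 40.5% ± 15.6 in SO. By that measure SOA was at 45.4% ± 12.8 and IV at 58.0% ± 9.97. RefSeq places further starts at 73.5, 91.3 and 153 kb after the first. The bins holding those at 91.3 and 153 kb were 18.0 and 24.6 points higher in adults, with overlap of libraries. The bin holding that at 73.5 kb had as few as 4 positions in a library. Levels within 500 bases of these RefSeq starts were not taken. The CpG-dense start of Atrnl1 was nearly unmethylated in every group: within 500 bases, 2 of 148 calls in IFC, 1 of 284 in SO, 1 of 150 in the 2 SOA libraries with a call and 6 of 309 in IV were methylated, or 1.35%, 0.352%, 0.667% and 1.94%.

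The fall in Atrnl1 lay, of the 4 equal segments, in those nearer the start. The first segment was at 61.6, 52.7, 55.1 and 51.1% in IFC and at 50.4, 58.5, 46.7, 60.4 and 52.8% in SO. In adults it was at 18.2, 25.5, 23.2 and 18.6% in SOA and at 23.1, 15.8 and 16.9% in IV. Every prepubertal library was above every adult one, with 46.7% the lowest of the former and 25.5% the highest of the latter. The second segment had means of 33.1% ± 2.53 (IFC), 35.0% ± 3.00 (SO), 17.5% ± 2.37 (SOA) and 19.9% ± 1.89 (IV). The adult minus prepubertal difference was -34.5 points in the first segment, -15.4 in the second, 0.778 in the third and 4.56 in the last. The whole-gene value averaged these unlike parts.

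The bin of Atrnl1 with the largest difference, chr19:57700001-57710000, lies 94 kb after the start. It was at 75.0 to 90.4% in IFC, 53.6 to 88.6% in SO, 24.6 to 31.0% in SOA and 21.2 to 32.0% in IV. The bin holding the start itself was low in all groups, with means of 13.9, 16.5, 5.39 and 6.28% in IFC, SO, SOA and IV. The last segment stayed intermediate, at 43.7% ± 4.70, 50.05% ± 2.20, 49.7% ± 1.36 and 53.2% ± 3.82. Past the end of the gene the level dropped in every group, to 7.56% ± 1.35, 6.72% ± 0.553, 7.24% ± 0.911 and 10.9% ± 4.62 over the 100-kb downstream flank, the last mean being raised by IV replicate 1 at 16.1%. The upstream flank was at 19.8% ± 5.07, 21.2% ± 2.504, 19.1% ± 2.21 and 22.2% ± 5.18. Neither flank of Atrnl1, of 10 bins upstream and 11 downstream, held a bin in which adult and prepubertal libraries did not overlap. Of all bins, 0.324% had adults above and 0.345% had them below, so few would be seen in flanks of this size.

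**Figure D3:**
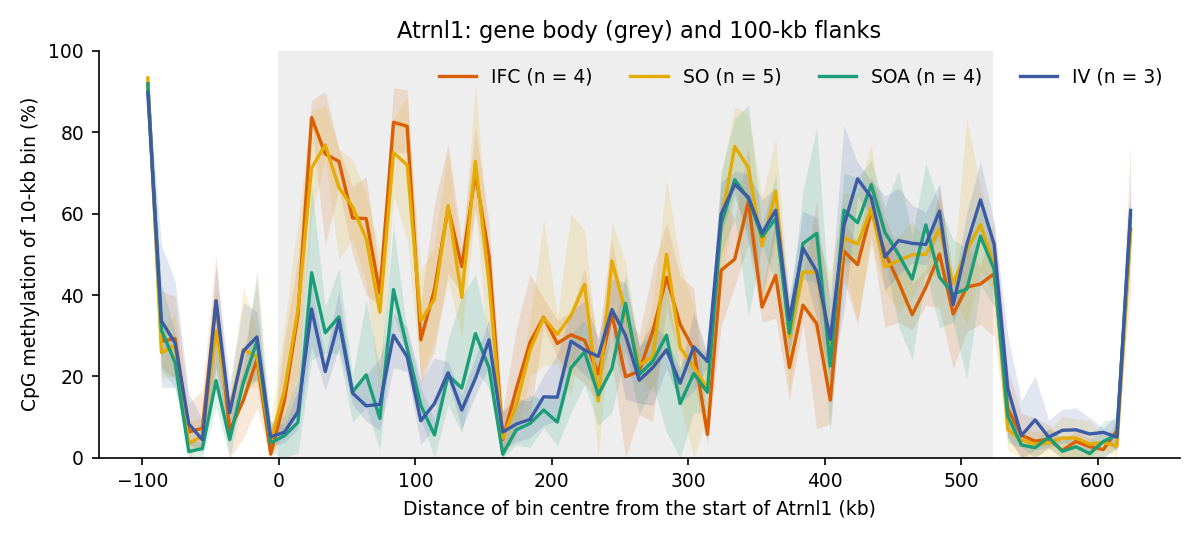
CpG methylation in percent of 10-kb bins across Atrnl1 (grey) and its flanks against distance from the start in kb, where lines are group means and shading is the range of the libraries. IFC and SO lie above SOA and IV over most of the first 2 of 4 equal segments of the gene, while all 4 groups are intermediate in the last part of the gene and low after its end.

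IFC and SO share their labelled age but differ in where the oocytes grew and in hormone treatment, given in the medium or by injection. They also differ in depth, with all 4 IFC but 2 of 5 SO libraries under 10 M calls. The genes were picked for the step from both of these groups to the adults. They were not picked for a difference between IFC and SO, although earlier results were known. The Akap6 gene body was lower in IFC by 5.92 points (12.3% ± 0.856, n = 4, against 18.2% ± 2.37, n = 5), with no overlap and a two-sided exact permutation p = 0.0159, where the smallest p that 126 assignments allow is 0.00794. The Atrnl1 gene body was 3.90 points lower in IFC, with overlap and an exact permutation p = 0.0714. Adjusted over all 18091 genes, limma called neither: the difference was -5.92 ± 2.29 points (SE) with adjusted p = 0.436 for Akap6 and -3.90 ± 1.98 points with adjusted p = 0.637 for Atrnl1. It called 0.52% of all genes, 0.205% as higher and 0.315% as lower in IFC. The exact values were 4 tests in all, 2 genes in 2 comparisons, and are not adjusted. The lack of overlap between IFC and SO in Akap6 has no share of all genes beside it, and adds little to the exact p. In the 4 IFC and 2 SO libraries under 10 M calls the differences were -5.87 and -5.85 points, a design in which p cannot go below 0.0667.

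By bins, a likelihood-ratio test of a logistic model on the calls, adjusted over 206062 bins, called 3.83% of the genome, 2.06% as lower and 1.76% as higher in IFC. In the Akap6 gene body it called 4 of 44 bins (9.09%) and in the upstream flank 4 of 11 (36.4%), all lower in IFC. The 4 flank bins are those of the 40 kb before the start. The strongest, chr12:52680001-52690000, was at 16.7, 0, 0 and 13.2% in IFC and at 62.5, 41.7, 44.1, 35.7 and 39.1% in SO. The difference of -37.2 points had an adjusted p = 5.11e-06 by the likelihood-ratio test. The 4 bins called in the gene body were centred 5.62, 15.6, 95.6 and 146 kb after the start, and the one at 95.6 kb holds the second GENCODE start. The downstream flank had 1 of 10 bins called, 10.1 points lower in IFC.

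In Atrnl1, 7 of 52 gene body bins (13.5%) were called, all lower in IFC, and none of 10 upstream or 11 downstream. They were centred 224 to 514 kb after the start, all outside the first segment, where the adult difference was largest. The strongest, chr19:57940001-57950000, was at 42.2, 58.7, 47.1 and 47.3% in IFC and at 78.7, 86.4, 64.0, 76.9 and 76.5% in SO, a difference of -27.7 points with adjusted p = 1.84e-06 (likelihood-ratio test). SOA and IV lay between 58.9 and 83.3% in that bin. With a further limit of 20 points, 1 bin of the Akap6 gene body, 3 of its upstream flank and 2 of the Atrnl1 gene body were called, all lower in IFC, where 1.11% of all bins were called, 0.737% as lower and 0.368% as higher.

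The likelihood-ratio test takes calls as independent and leaves out the spread between libraries, which was larger than counting error: the median dispersion over bins was 1.33. Tests that use this spread called no bin of either window. The quasi-binomial F test called 0.000485% of all bins and limma 0.0277%. At an unadjusted p under 0.05, limma found 9 of 44 bins of the Akap6 gene body, 4 of 11 of its upstream flank and 9 of 52 of the Atrnl1 gene body, where 7.86% of all bins passed. The F test found 8, 4 and 7, where 7.39% passed.

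**Figure D4:**
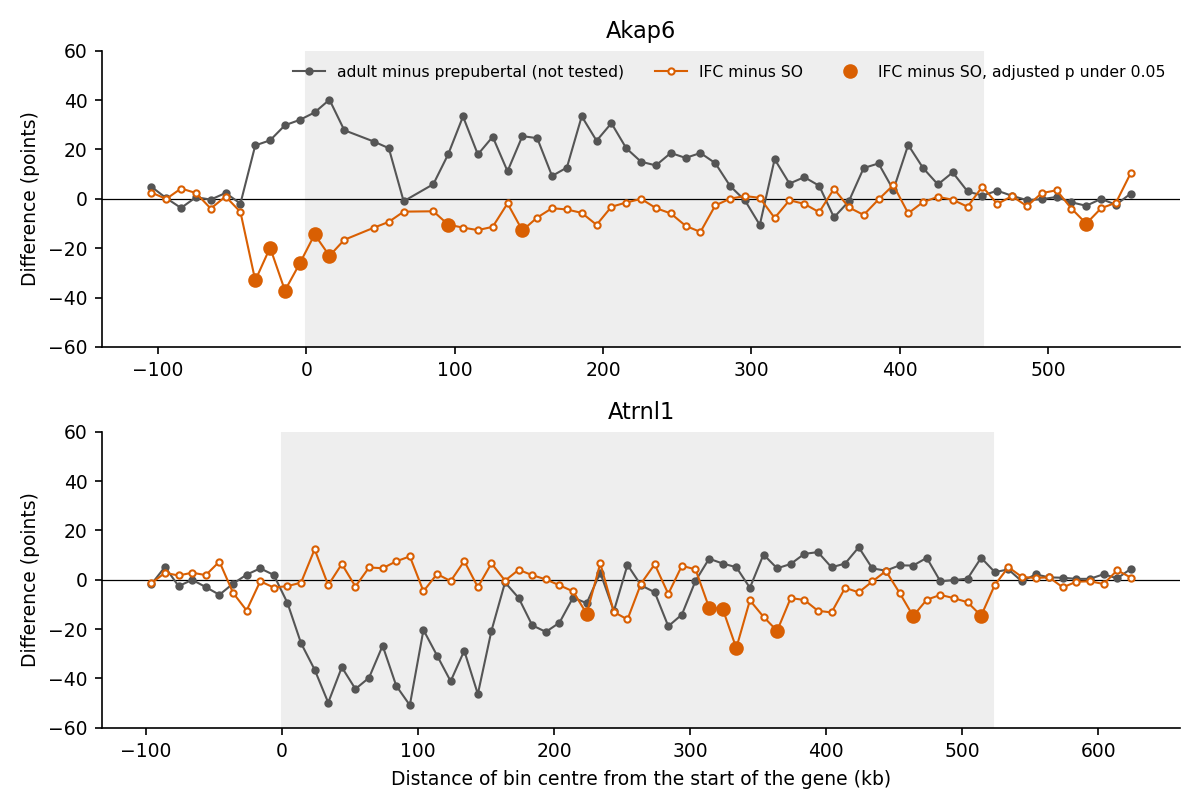
Differences of 10-kb bins in percentage points along Akap6 (top) and Atrnl1 (bottom) against distance from the start in kb, where grey points are adult minus prepubertal means, open points IFC minus SO means, and large points the bins called between IFC and SO by the likelihood-ratio test. Of the 9 called bins of Akap6, 6 are centred from 34.4 kb before to 15.6 kb after the start and the others at 95.6, 146 and 525.6 kb, and the 7 of Atrnl1 are centred 224 to 514 kb after its start.

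SOA and IV are both of adults and differ by hormonal stimulation. They also differ in depth: 3 of 4 SOA and none of 3 IV libraries were under 10 M calls. Their gene body means differed by 0.00996 points in Akap6 (exact permutation p = 1) and by -1.38 points in Atrnl1 (exact permutation p = 0.543), with a smallest possible p of 0.0286. The limma standard errors were 2.61 and 2.25 points, and limma called 0 of 18091 genes, with 1058 (5.85%) at an unadjusted p under 0.05. Of the bins, the likelihood-ratio test called 1 of 45 in the Akap6 gene body, 2 of 52 in that of Atrnl1, 2 of 10 in the upstream and 1 of 11 in the downstream flank of Atrnl1, all lower in SOA, where 5.31% of all bins were called 4.25% as lower and 1.06% as higher in SOA. None of those in the gene bodies reached 20 points, where 0.372% of all bins did, 0.224% lower and 0.148% higher. Without IV replicate 1 no bin of either gene body was called and the genome share was 0.953%. The F test called none in either window and 0.000937% of all bins, and limma called none of either. At an unadjusted p under 0.05, limma found 3 of 45 bins in the Akap6 gene body and 2 of 52 in that of Atrnl1, where 5.09% of all bins passed, and the F test found 1 and 2, where 5.8% passed.

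The next protein-coding gene after Akap6 is Npas3, a transcription factor gene of the bHLH-PAS family, on the same strand and 93.1 kb from the end of Akap6. Unlike Akap6 it was lower in adults, with means of 65.7, 63.6, 51.5 and 48.7% in IFC, SO, SOA and IV. Its difference was -14.5 ± 1.69 points (limma, adjusted p = 9.7e-05), and the call was kept with each library left out in turn. Between the genes, the downstream flank of Akap6 was low in all groups at 9.08% ± 1.79, 10.1% ± 2.57, 7.19% ± 1.00 and 9.80% ± 3.41. Of the noncoding genes near either member, Gm35239 before Akap6 and AC140413.1, AC140413.3 and Gm16277 near Atrnl1 had enough positions. Limma called none of them between adults and prepubertal oocytes (adjusted p from 0.325 to 0.991), where it called 5.28% of all genes. The other genes in the windows, such as AC140469.1 and Mir5623 within Atrnl1, had too few positions in at least 1 library.

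Among relatives of Akap6, 18 of the 20 other listed A-kinase anchoring protein genes could be compared. Limma called 3 of them lower in adults and none higher, with a median difference of -1.40 points, where 2.91% of all genes were called lower and 2.38% higher. Akap2 fell by 16.1 points, from 40.6% ± 4.24 in IFC and 39.9% ± 3.03 in SO to 25.2% ± 4.67 in SOA and 23.1% ± 2.44 in IV (adjusted p = 0.000133, limma). Ezr, the gene of ezrin, which links actin to the membrane, fell by 15.9 points (adjusted p = 0.000553, limma). Akap10, which has a mitochondrial form, fell by 7.23 points, but its adjusted p of 0.0441 (limma) rose above 0.05 when any of 13 of the 16 libraries was left out, and to 0.0506 with depth class as a covariate. No family member compared had as large a rise as Akap6, the next being Akap17b at 4.25 points without a call. Long family members such as Lrba and Nbea were at 82.1 to 85.4% and 29.8 to 35.6% in all groups, with no call.

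Of the 9 protein kinase A genes, limma called 1 lower in adults and none higher, where it called 2.91% of all genes lower and 2.38% higher. This was Prkar2b, a regulatory subunit gene, at -8.16 points (adjusted p = 0.0245, limma). It had no call once IFC replicate 3, SOA replicate 4, IV replicate 2 or IV replicate 3 was left out. With depth class as a covariate it also had none (adjusted p = 0.0872, limma). Of 10 genes measured among known partners of the AKAP6 protein and regulators of cAMP, 1 was called, as lower in adults. Of all genes, 5.28% were called, 2.91% as lower. Ppp3ca, the catalytic subunit gene of calcineurin, fell by 13.1 points (adjusted p = 0.000176, limma) from 63.2% ± 3.02 in IFC and 62.0% ± 3.36 in SO to 49.8% ± 2.33 in SOA and 49.1% ± 3.02 in IV. Ryr2, the ryanodine receptor gene, was at 82.7 to 86.0% in all groups (adjusted p = 0.782). The medians of these lists were -2.29 and -0.241 points.

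Only 3 of the 8 other genes given for the attractin family and melanocortin signalling had enough positions. Limma called none, where it called 5.28% of all genes, and their median difference was -2.48 points. Atrn, the attractin gene, was at 82.4% ± 5.05, 85.5% ± 3.27, 88.6% ± 4.41 and 81.6% ± 1.19, nearly full methylation, whereas Atrnl1 was intermediate. Mgrn1 and Agrp had differences of -2.48 and -4.24 points (adjusted p = 0.769 and 0.339, limma). No gene of the 4 lists was called between IFC and SO, where 0.52% of all genes were called, or between SOA and IV, where 0% were.

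**Figure D5:**
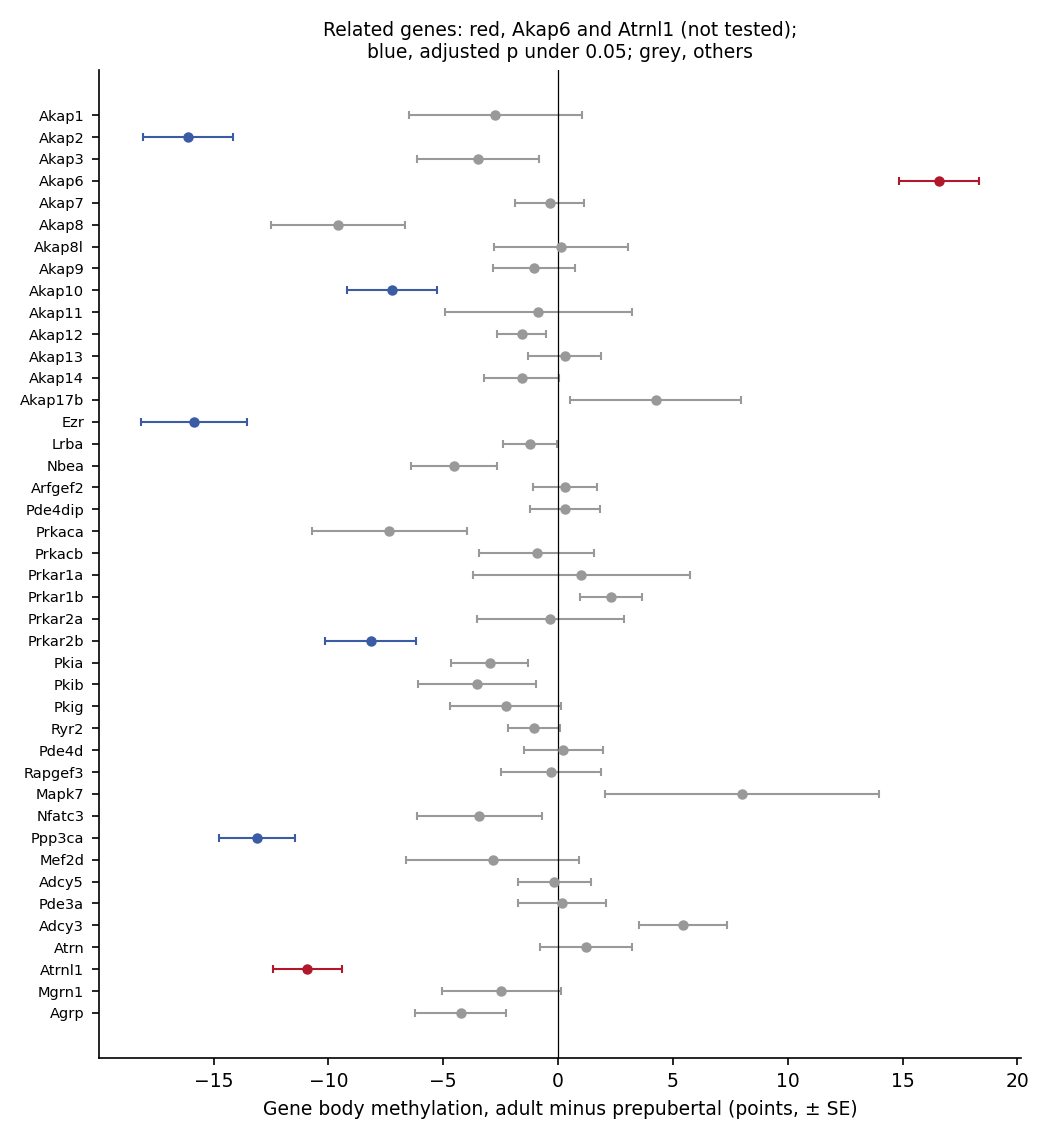
Gene body methylation difference, adult minus prepubertal in percentage points, for the genes of the 4 lists that could be compared, with the SE of the limma fit. Akap6 at 16.6 and Atrnl1 at -10.9 points (red) were not tested, and the 5 genes in blue, with adjusted p under 0.05, are all below 0.

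The genes whose levels followed Akap6 most closely over the 16 libraries, by the root mean square difference after centring each gene on its own mean, were Vwa3b, Frmd4a, Fam129a, Zfpm2 and Tmod1. Their distances were 2.29, 3.10, 3.16, 3.33 and 3.398 points, against a median of 10.3 over all other protein-coding genes. Vwa3b on chromosome 1 was at 13.1, 20.1, 32.5 and 33.6% in IFC, SO, SOA and IV, close to Akap6 in level and in the step from IFC to SO. For Atrnl1 they were Lrrc9, Prdm11, Rgl1, B230118H07Rik and Foxp2, at 1.85 to 2.35 points against a median of 7.75. Foxp2, a forkhead transcription factor gene of 541 kb, was at 51.1, 54.4, 42.5 and 43.4%. These likenesses describe the libraries at hand, which the genes share along with their depth.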

How the data were processed

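Pools of metaphase II oocytes were lysed and PBAT libraries sequenced by the authors, on 2 kinds of sequencer whose assignment to libraries is not given in the sources used here. Reads were trimmed with Trim Galore 0.4.4 and cutadapt 1.9.1 and mapped to GRCm38 with Bismark 0.19.0, per the labels. The deposited tables give, for each covered cytosine of a CpG, the percent methylation and, as whole-number counts, its methylated and its unmethylated calls, with no normalization by the authors. In each library 0.664 to 2.36% of positions lay off reference CpGs. The oocytes carry CBA/Ca alleles mapped to a C57BL/6J reference, so that C-to-T variants can read as unmethylated, in the same way in all groups. The note on lysis in the labels speaks of an embryo, while the labels and the study give the cells as oocytes.

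A region's level was the mean percent over covered CpG positions, and a bin needed 5 of them in each library and a gene 20. Adult minus prepubertal was the mean of SOA and IV minus the mean of IFC and SO. Bins were compared by a likelihood-ratio test of a logistic model of the calls, genes by limma 3.58.1 (R 4.3.3), both with Benjamini-Hochberg adjustment over all features and a threshold of 0.05, and the gene bodies of the members by two-sided exact permutation tests (a p is the share of assignments with an absolute difference at least as large). Other steps used Python with numpy 2.4.6, scipy 1.17.1 and statsmodels 0.14.6. The likelihood-ratio test was run on simulated independent calls, which hold no spread between libraries, and limma on simulated gene levels. The permutation test was compared with that of scipy, and the F test was not checked in this way. Intervals are 95% Wilson intervals.

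The members, gene lists and tests were chosen with earlier results of these data known. The study itself named Atrnl1, from the same libraries, among the genes most affected by higher methylation in SO than in SOA. Named genes were the members, the genes in their windows, 4 lists of related genes, and for each member the 5 protein-coding genes nearest in pattern. Asip was not found under that symbol in the annotation. A gene of the lists and a sequence are not reported here. Replicates are separate pools. The limma, F test and permutation p-values measure the spread between pools, and the likelihood-ratio p-values counting error only. Alternatives were pooled calls, the mean of bins, positions with at least 3 calls, reference CpGs only, thinning to 5218053 calls, depth classes split at 10 M calls, other bins and tests, the replicate number as a block, and each library left out.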

Additional observations from a re-analysis of the deposited data

How the results depend on the processing

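The gene body difference between adults and prepubertal oocytes, for which the genes were picked, kept its direction in both genes under every alternative run. The alternatives reused the same calls, so this describes the processing and is no test of the difference. For Akap6 it moved to 12.7 points with positions of at least 3 calls, of which a library held as few as 1, and to 11.1 points in libraries over 10 M calls (15.5 to 17.4 with 1 library left out). For Atrnl1 it stayed between -12.2 and -10.3 points.

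The unadjusted exact p of Akap6 between IFC and SO rose above 0.05 with positions of at least 3 calls (-14.7 points, exact permutation p = 0.183) and where the design could not go below it, in libraries under 10 M calls (-5.87) and with the replicate block (-6.62, exact p = 0.125). Leaving out 1 library gave -6.62 to -5.12 points. The difference of Atrnl1 turned to 2.12 points with at least 3 calls and its unadjusted p fell below 0.05 after thinning (-4.27 points, exact permutation p = 0.0476), and ran from -4.86 to -3.25 with 1 library left out. Between SOA and IV, Akap6 reversed with reference CpGs only (-0.0885) and over 10 M calls (-5.06) and ran from -2.19 to 1.70 with 1 library left out, and Atrnl1 reversed with at least 3 calls (1.11) and ran from -2.54 to 0.67, turning without IV replicate 1.

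Bins called between IFC and SO numbered 4 in Akap6 and 7 in Atrnl1. They were 0 and 0 with the F test or limma, 1 and 2 with a limit of 20 points, 8 in Akap6 with bins shifted by 5 kb (3.87% of all bins called), 7 with 20-kb bins, which are fewer (5.85%), and 3 in each gene after thinning (1.79%). Leaving out 1 library gave 2 (SO replicate 1, 3.67% of all bins, or 3, 3.16%) to 8 (SO replicate 5, 3.74%) in Akap6. In Atrnl1 it gave 4 (IFC replicate 3, 3.26%) to 8 (SO replicate 2, 3.69%, or 3, 3.16%). Between SOA and IV the 1 and 2 bins became 0 and 0 with the F test, limma or 20 points. They were 3 in Akap6 with shifted bins (5.45% of all bins), 1 in Atrnl1 with at least 20 positions (12.5%), and 1 and 0 after thinning (0.635%). With 1 library left out they were 0 to 3 in each. Both were 0 without IV replicate 1 (0.953%) and 3 without IV replicate 2 (8.23%), and Atrnl1 also had 3 without IV replicate 3 (10.1%). Genes called between adults and prepubertal oocytes were 956 (5.28%), and 835 (4.62%) without IV replicate 1, with 5 and 4 genes of the lists among them. With 1 library left out, the genes called ran from 694 (3.84%, IV replicate 2) to 958 (5.30%, IFC replicate 4). The logit of pooled calls gave 740 (4.09%), and a minimum of 5 positions per gene gave 991 (3.83%). Genes called between IFC and SO were 94, or 51 with the logit of pooled calls, and 64 to 111 with 1 library left out. Between SOA and IV they were 0 to 1. The causes were not tested.

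Deviations of same-numbered libraries correlated from -0.023 to 0.0935 over 7 pairs. Of the IFC and SOA libraries in these pairs, 3 correlated best with the library of their own number. With mostly 1 call per position, such correlations cannot decide whether same-numbered libraries were paired. With the replicate block, the bins called between SOA and IV were 2 in Akap6 and 1 in Atrnl1 (2.37% of all bins), and those between IFC and SO 6 and 7 (3.48%).

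Depth limits single bins and starts, where most positions had 1 call. Hormone dose and age cannot be told apart between SO and SOA. Nor can growth site and hormone treatment between IFC and SO.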
